A study of Mus musculus with 6 samples.

Results

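The HoxC cluster is one of the mammalian clusters of Hox genes, and its contacts are described here from Hi-C maps of mouse P19 embryonal carcinoma cells, an established cell line that forms neural cells under retinoic acid. Its members are the listed contacts, on chromosome 15, in which at least 1 of the 2 bins lies in chr15:102722500-102887500 (mm9, given by the centres of its first and last bin), an interval of 170 kb with Hoxc13 near its lower and Hoxc4 near its higher end. There were 720 such contacts among 3654010 nuclear contacts listed at any time point. Of these, 154 joined 2 bins of the interval (inside contacts), 260 joined the interval to lower coordinates (lower flank) and 306 joined it to higher coordinates (higher flank). The groups were untreated cells (T0) and cells after 6 h (T6) or 48 h (T48) with all-trans retinoic acid (ATRA) at 1e-06 M, grown as monolayers with 5% fetal and 5% delipidated calf serum. Each of the 3 groups had 2 libraries. The labels name no engineered allele and do not say whether libraries of a group came from separate cultures, so p-values measure the spread between these libraries, which may be technical. The series was made to follow chromatin structure during early neurogenesis, and the question taken up here is whether contacts within the cluster and with its flanks differed between time points.

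Hox genes encode homeodomain transcription factors that set position along the body axis. In each cluster, the order of the genes follows the order in which they are switched on: the genes at the 3′ end, such as Hoxc4, come first and act most anteriorly, and those at the 5′ end, such as Hoxc13, come last and act most posteriorly. Retinoic acid, through its nuclear receptors, is a classic inducer of 3′ Hox genes in embryonal carcinoma cells. Hox clusters are also known for lying where 2 large contact domains meet, so that one end of the cluster tends to touch one flank and the other end the other flank; this is best described for HoxD. No expression was measured in the libraries used here, so contact and transcription cannot be set side by side.

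In the RefSeq annotation, read for names and order only because its build (GRCm38.p6) is not that of the contact table, the 9 members run in rising coordinates as Hoxc13, Hoxc12, Hoxc11, Hoxc10, Hoxc9, Hoxc8, Hoxc6, Hoxc5 and Hoxc4. The long non-coding RNA gene Hotair and the microRNA genes Mir196a-2 and Mir615 lie between them. Next to the cluster, beyond Hoxc13, come Calcoco1, Atp5g2 and Atf7, and beyond Hoxc4 come Smug1, which encodes a uracil-DNA glycosylase, Cbx5, which encodes the heterochromatin protein HP1-alpha, and Hnrnpa1, which encodes an RNA-binding protein. No gene was assigned to a single bin, since no mm9 annotation was used here.

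The sequences shown mark what the cluster holds for a reader who follows retinoic acid or microRNAs there; contacts were counted in bins of 5 kb, so none of these sequences has a value of its own. Of the 9 genes, Hoxc4 has an entry in the RefSeq promoter table, at chr15:103034145-103034444 (GRCm38.p6, plus strand), from 250 bases before to 50 after the annotated start. Capitals mark its 1 match, on the minus strand, to AGGTCA, the hexamer bound by retinoic acid receptors, at bases 105 to 110 of the window.
Hoxc4 promoter: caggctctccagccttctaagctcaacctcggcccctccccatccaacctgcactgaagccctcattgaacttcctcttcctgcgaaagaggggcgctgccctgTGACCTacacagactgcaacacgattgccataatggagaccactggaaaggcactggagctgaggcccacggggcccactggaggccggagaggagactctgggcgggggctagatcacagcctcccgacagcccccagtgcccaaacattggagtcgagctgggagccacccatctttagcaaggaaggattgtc
Searched on both strands, AGGTCA occurs in 16.3% of 32851 promoter windows of the same length, so the match is a description and not a site. Direct repeats of it with 5 or 2 bases between the copies, named DR5 and DR2, have no match in the Hoxc4 window, and each occurs in 3 of the 32851.
Capitals in the microRNAs mark the seed, bases 2 to 8. Mir196a-2 gives a microRNA known to target Hoxb8 messenger RNA, and Mir615 lies within the Hoxc5 gene.
mmu-miR-196a-5p: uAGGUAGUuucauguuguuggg
mmu-miR-615-3p: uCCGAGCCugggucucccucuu
The seeds of these microRNAs differ.

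The table lists a contact per time point, with a count in both libraries of that time point or 0 in both, so a contact that is not listed was not necessarily absent. The lowest listed count rises as distance shortens: at 50 kb it was 12 and 8 in the libraries of T0, 11 and 7 in those of T6 and 11 and 8 in those of T48. Listed counts summed to between 23003295 and 50154643 per library, with replicate 2 the shallower library in each group. HoxC contacts held 10931 and 6668 counts in the T0 libraries, 9285 and 5440 in those of T6 and 9239 and 6413 in those of T48. Of the 34 bins of the interval, 26 had a listed contact and 8 had none at any time point. The numbers of HoxC contacts listed were 522, 477 and 480 at T0, T6 and T48, with 292 in common, and tests of counts used these common contacts, as a 0 for an unlisted contact is not a measured count.

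HoxC did not pass the test for a change in contact strength, either inside or with a flank. Counts of the common contacts, given as CPM (counts scaled by edgeR to a fixed library total), inside HoxC were 112 and 113 for T0, 114 and 118 for T6 and 116 and 120 for T48. All 4 treated libraries lay above both untreated ones, by a small margin, over these 77 common contacts. The log2 fold change was 0.04 (SE 0.044) at T6 and 0.07 (SE 0.044) at T48 over T0, with edgeR adjusted p-values of 1.00 and 0.718. The direction at T48 depended on this choice of contacts. With all listed contacts, and 0 for unlisted ones, it was -0.11 over T0 (edgeR adjusted p 0.193). For the higher flank, CPM stood at 65.0 and 69.9 in the T0 libraries, 69.2 and 73.6 in those of T6 and 68.6 and 73.1 in those of T48. These groups overlapped, and the log2 fold change was 0.08 (SE 0.060) at T6 and 0.07 (SE 0.060) at T48, with adjusted p-values of 1.00 and 0.788. Between libraries of the same replicate number, which the labels do not pair, the log2 differences from T0 were 0.09 and 0.07 after 6 h, then 0.08 and 0.06 after 48 h. For the lower flank, CPM stood at 56.4 and 63.3 in the T0 libraries, 55.8 and 63.1 in those of T6 and 58.9 and 63.3 in those of T48, which also overlapped. The log2 fold change was -0.01 (SE 0.085) at T6 and 0.03 (SE 0.085) at T48, with adjusted p-values of 1.00 and 0.966. In edgeR, 0 of 37601 such features over the genome were called in each of the 3 comparisons (0%), whereas 2.12%, 9.14% and 7.37% had an unadjusted p under 0.05 in T6 over T0, T48 over T0 and T48 over T6; DESeq2 called 5, 108 and 48.

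**Figure D1:**
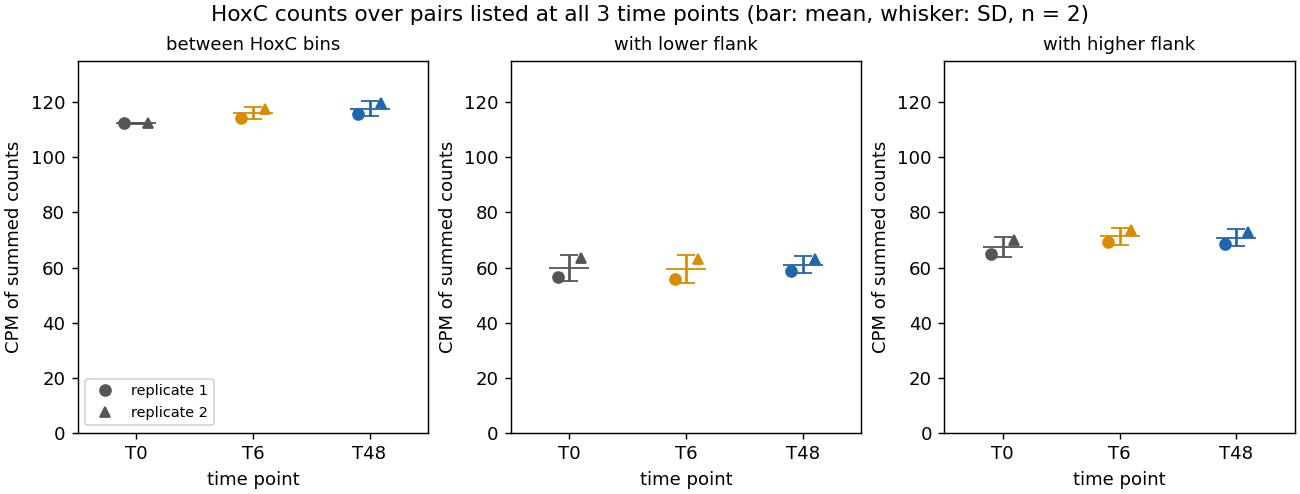
CPM of HoxC contacts listed at all 3 time points, by time point (T0 untreated, T6 and T48 after 6 h and 48 h of ATRA), for contacts inside the interval, with the lower flank and with the higher flank. Points are libraries, bars means and whiskers SD (n = 2); inside contacts lie between 112 and 120 in all 6 libraries.

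Nor did the balance between inside and flanking contact pass its test. Inside contacts took 48.1% and 45.8% of the common HoxC counts in T0 libraries, 47.8% and 46.2% in T6 and 47.6% and 46.7% in T48. The libraries of different time points overlapped and replicate 2 was the lower of each group. The mean was 46.9% ± 1.59 (SD, n = 2) at T0, 47.0% ± 1.10 at T6 and 47.2% ± 0.609 at T48, with an exact permutation p of 1 in each two-sided comparison, in a design that cannot give a p below 0.333. The difference in log2 inside over outside, tested with limma over 12111 windows of 170 kb, was 0.03 (SE 0.067) at T6 and 0.02 (SE 0.067) at T48 over T0, and the adjusted p-values were 1.00 and 0.973. None of the 12111 windows was called by limma in the 3 comparisons (0%).

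HoxC ranked high among windows of its size in how much of its contact left the interval. Between 51.9% and 54.2% of its common counts went to flanking bins in the 6 libraries, against 15.7% to 16.6% in the median window, and 1.62% to 2.21% of windows had as low a ratio of inside to outside counts. HoxC had 391, 358 and 380 flanking contacts at the successive time points, whereas the median of 14973 windows had 119, 100 and 116. As many were found in 0.568%, 0.367% and 0.688% of windows. These are ranks of 1 locus among windows, given as a description.

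Listed flanking contacts also recurred. Of HoxC contacts of 50 to 300 kb listed at T0, 70.3% of the 158 with the lower flank recurred at T48 (95% Wilson interval 62.7% to 76.8%) and 66.5% of the 173 with the higher flank (59.1% to 73.1%). Among all nuclear contacts of that distance, 27.7% were listed again. These intervals, like others here, cover counting error only and treat contacts that share bins as independent. The common flanking contacts were no stronger than others at their distance on the lower side: their counts were 0.78 to 0.94 of the mean of all common contacts at the same distance, and 0.99 to 1.20 on the higher side.

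The 2 ends of the cluster faced opposite ways. Bins up to 42.5 kb from the start of the interval, the Hoxc13 end, had all of their common flanking counts with lower coordinates, and bins from 107.5 kb on, the Hoxc4 end, had all of theirs with higher coordinates. The change came between neighbouring listed bins in the middle. At 67.5 kb (centre 102787500), 30.3% and 27.5% of flanking counts went to higher coordinates in T0 libraries, 26.2% and 27.7% in T6 and 23.3% and 30.9% in T48. At 77.5 kb (centre 102797500), the share reached 64.6% and 69.0% in the T0 libraries, 71.4% and 71.3% in those of T6 and 67.1% and 64.8% in those of T48. The lowest share at 77.5 kb was thus above the highest at 67.5 kb over the 6 libraries. These shares use the same common contacts at each time point, which favours a stable place. With all listed contacts, the share at 67.5 kb was 21.1% and 18.9% in T0 libraries, 33.3% and 35.6% in T6 and 34.5% and 43.8% in T48. At 77.5 kb it was 64.0% and 67.0%, 64.5% and 63.2%, and 57.7% and 57.7%. The switch thus lay between the same bins at each time point, with a smaller step at T48 than at T0. The ends were not wholly one-sided with all listed contacts. At 42.5 kb the share to higher coordinates was 0% in the T0 and T6 libraries and 18.5% and 18.3% in those of T48. At 107.5 kb it was 91.3% and 91.3% in T0 libraries, 91.7% and 88.8% in T6 and 100% in both of T48.

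**Figure D2:**
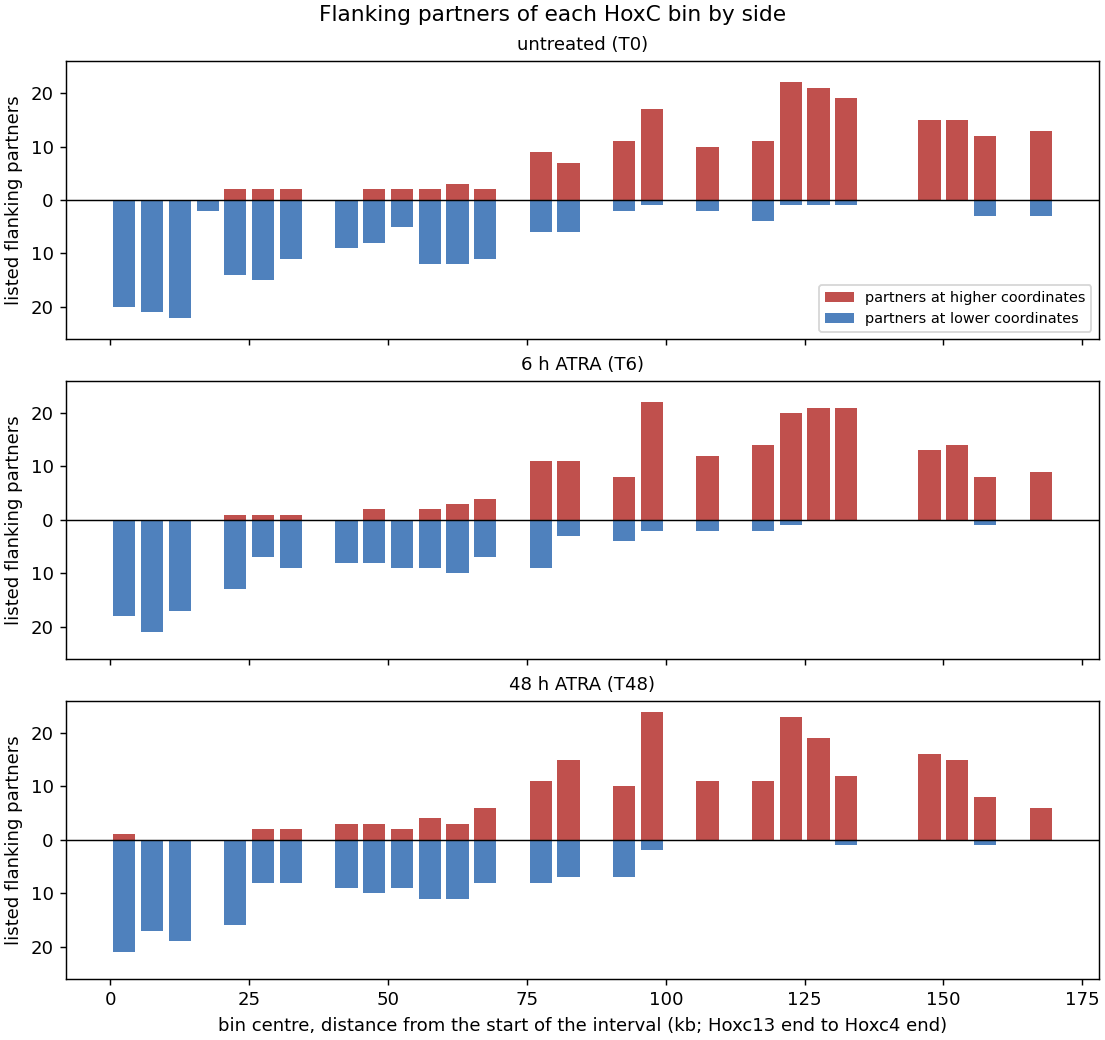
Number of listed flanking partners of each HoxC bin, at higher coordinates (red, upward) and at lower coordinates (blue, downward), against the distance of the bin's centre from the start of the interval in kb, for each time point. Bins at the Hoxc13 end have mostly lower partners and bins at the Hoxc4 end mostly higher ones, and the side changes between 67.5 and 77.5 kb at each time point.

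Distance alone favours the nearer flank, so the same count was made in other windows. At T0, 87.0% of HoxC flanking contacts went from each side of the midpoint of the interval to its nearer flank, at T6 86.6% and at T48 83.4%. The median of 9574, 7597 and 9493 windows with at least 100 flanking contacts was 59.8%, 60.8% and 58.0%, and 8.52%, 9.64% and 10.9% of windows were at or above HoxC. The Hoxc13 side had 33, 36 and 52 listed contacts with the higher flank at the successive time points, and the Hoxc4 side had 18, 12 and 11 with the lower flank. These counts have no replicate, because contacts are listed per time point.

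A few bins outside the cluster recurred as partners of many HoxC bins. Beyond the Hoxc4 end, the bin centred at 103002500, 112.5 kb outside the interval, was listed with 20, 12 and 18 HoxC bins at T0, T6 and T48, and its neighbour at 103007500 with 18, 17 and 17. Beyond the Hoxc13 end, the bin at 102587500, 132.5 kb outside, was listed with 18, 17 and 15 HoxC bins and the bin at 102592500 with 16, 13 and 14. Both sides thus had a zone of repeated partners more than 100 kb away, and both zones were present at every time point. HoxC contacts reached 82 partner bins in all, 39 lower and 43 higher, the farthest 3647.5 and 302.5 kb outside. The last listed bin of chromosome 15 lies 595 kb above the interval, which bounds the higher side. Lower-flank contacts of more than 400 kb were each listed at 1 time point with counts of 3 to 7, and the next lower partner bin lay 277.5 kb outside.

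**Figure D3:**
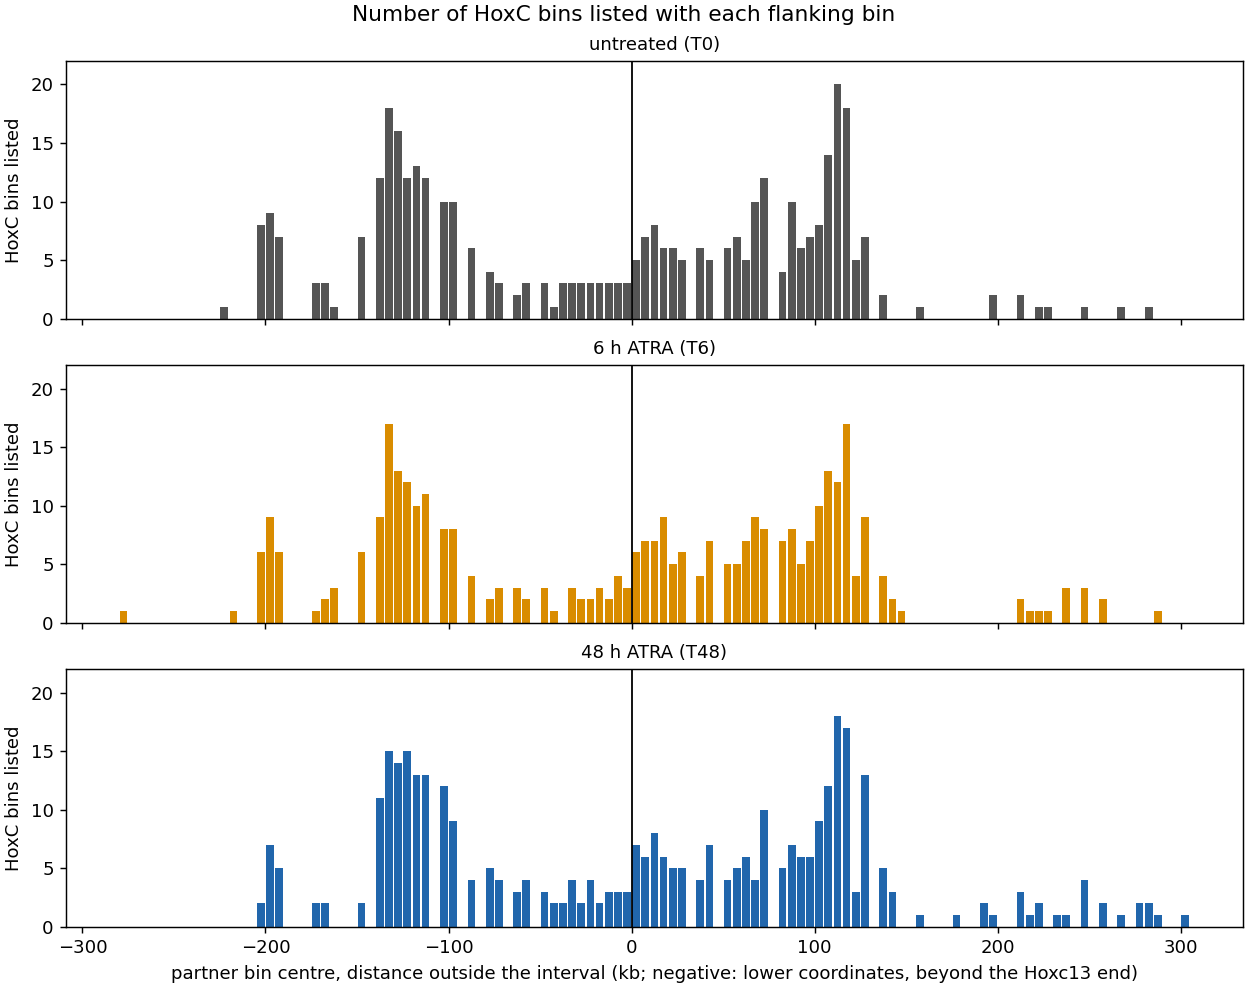
Number of HoxC bins listed with each flanking bin, against the distance of that bin outside the interval in kb (negative: lower coordinates, beyond the Hoxc13 end), for each time point. The peaks 132.5 kb beyond the Hoxc13 end and 112.5 to 117.5 kb beyond the Hoxc4 end stand at all 3 time points; 6 lower partner bins farther out than the axis are not drawn.

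Some flanking bins had more and others fewer HoxC partners after ATRA. The bin at 103017500, 127.5 kb beyond the Hoxc4 end, went from 7 to 9 to 13 HoxC bins. Nearby, the bin at 103027500 had 2, 4 and 5, and the one at 103032500 had 0, 2 and 3. In the other direction, the bin at 102957500, 67.5 kb beyond the Hoxc4 end, had 10, 9 and 4. Beyond the Hoxc13 end, the bin at 102517500 had 8, 6 and 2 and the bin at 102572500 had 7, 6 and 2, whereas the bin at 102597500 had 12, 12 and 15. Both flanks thus held gains and losses, and these numbers, with no replicate, have no test.

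Along the cluster itself, summed counts of common contacts per bin differed far more between bins than between time points. Contacts listed at only some time points are left out of these sums. The highest bin had 18 common contacts and the lowest had 4. Summed CPM of a bin ran from 2.06 to 11.9 over 25 bins and 6 libraries; the highest, at 62.5 kb (centre 102782500), had 11.4 and 11.7 in the T0 libraries, 11.2 and 11.3 in those of T6 and 11.4 and 11.9 in those of T48. On common contacts, the bin at the Hoxc4 edge, 167.5 kb from the start (centre 102887500), was the lowest. It had 2.88 and 2.06 in the T0 libraries, 3.37 and 3.49 in those of T6 and 2.98 and 3.82 in those of T48. No HoxC bin was called in edgeR: 0 of 25 in each comparison, where 0%, 0.00579% and 0.00418% of 310746 bins were called in T6 over T0, T48 over T0 and T48 over T6. At an unadjusted p under 0.05 there were 0, 1 and 0 HoxC bins, against 2.47%, 6.11% and 5.41% of all bins, and DESeq2 also called 0 HoxC bins.

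The lowest p at T48 over T0 belonged to the bin at 132.5 kb (centre 102852500), in the Hoxc4 part of the interval. It had CPM of 4.86 and 4.68 in the T0 libraries, 5.33 and 5.59 in those of T6 and 5.77 and 6.25 in those of T48, so that both libraries of each treated group lay above those of T0. Its log2 fold change at T48 was 0.33 (SE 0.094), with an edgeR adjusted p of 0.802. The edge bin at 167.5 kb had a log2 fold change of 0.42 (SE 0.192, adjusted p 0.821), which was 0.71 without replicate 1 of T0, 0.23 without replicate 2 of T0 and 0.25 without replicate 2 of T48. These values rest on 10 and 4 common contacts. The bin at 132.5 kb had 26, 26 and 14 listed partners at T0, T6 and T48, and the edge bin had 20, 15 and 10. In both bins the common contacts had higher CPM at T48 than at T0, while fewer contacts were listed. With all listed contacts, the edge bin had 293 and 196 higher-flank counts in the T0 libraries, 246 and 157 in those of T6 and 72 and 52 in those of T48. Over the 25 bins, 18 were higher and 7 lower at T48 than at T0, with a median log2 fold change of 0.07, beside 0.00 over all bins tested. An inside contact counts in both of its bins, so the bins are not independent. With all listed contacts, and 0 for unlisted ones, 11 of 26 bins were higher, with a median of -0.07.

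Inside the interval, contacts of 15 to 45 kb were listed more densely than in most windows. Of the pairs of bins 15 to 45 kb apart, 35.7%, 30.6% and 30.1% were listed at the successive time points, shares which 1.06%, 1.09% and 0.885% of 14794 windows equalled or passed. At 5 to 10 kb the shares were 46.2%, 41.5% and 43.1%, and 31.9%, 32.7% and 43.7% of windows had as many. No contact of 110 kb or more joined HoxC bins at any time point, so the Hoxc13 and Hoxc4 ends were not listed with each other; the median window had 1 such contact at each time point.

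**Figure D4:**
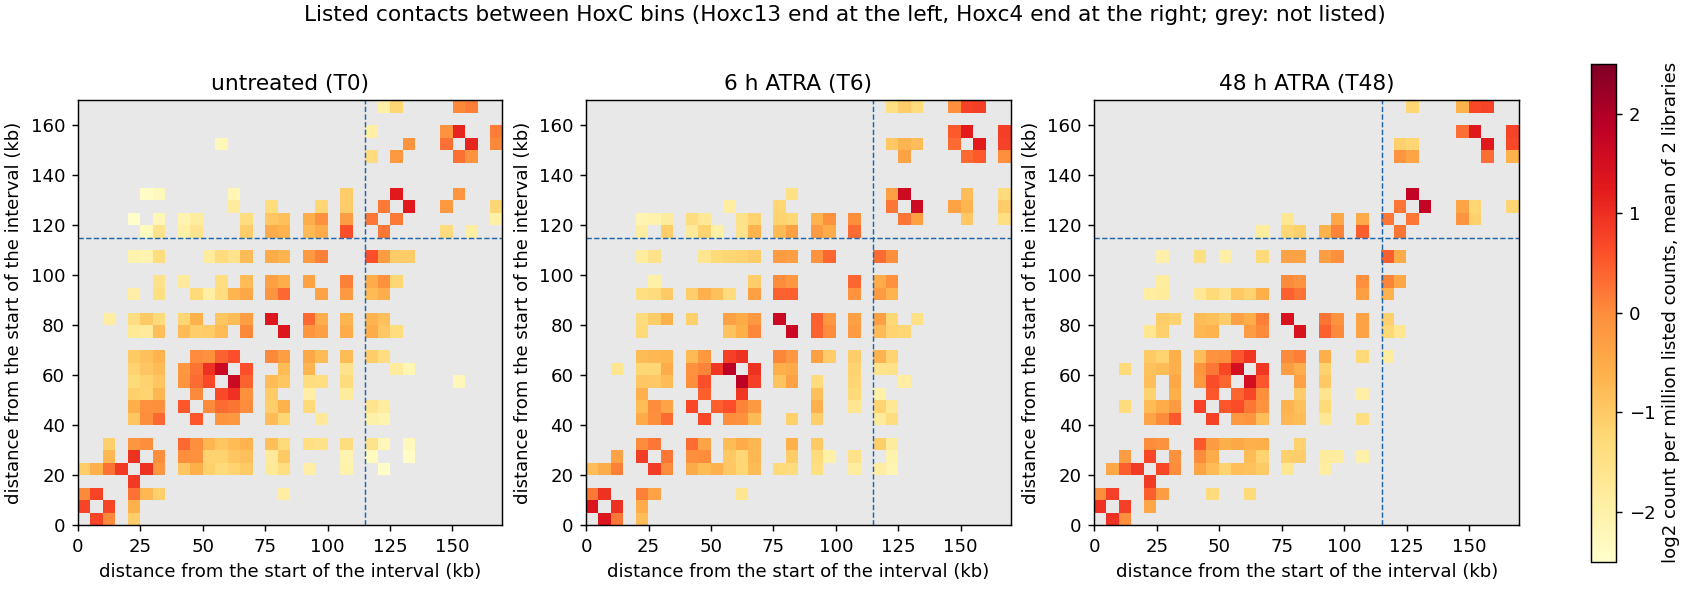
Contacts between HoxC bins at each time point: both axes are the distance from the start of the interval in kb, the colour is log2 CPM of listed counts (mean of 2 libraries), grey cells are not listed, and the dashed lines mark 115 kb. The cells that join bins below the lines to bins above them number 29, 27 and 9 at T0, T6 and T48.

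The contacts of at least 50 kb were listed less at 48 h. There were 31, 32 and 13 at the successive time points, out of 300 possible pairs, against 7, 6 and 6 in the median window. The T48 number was 0.419 of the T0 number, where the median window with at least 20 at T0 had 0.774 and 9.50% of 2758 windows were at or below HoxC. Of the 31 listed at T0, 20 were listed again at T6 (64.5%, 95% Wilson interval 46.9% to 78.9%) and 8 at T48 (25.8%, 13.7% to 43.2%). All nuclear contacts of 50 to 105 kb were listed again at 32.7% and 29.3%. HoxC contacts share bins and their listing has no replicate, so these intervals do not test a difference from that share or between time points.

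Most of the difference lay toward Hoxc4. With the higher bin at 117.5 kb (centre 102837500) or beyond, toward Hoxc4, 16 contacts of at least 50 kb were listed in untreated cells, 17 at T6 and 1 at T48. With the higher bin at 107.5 kb (centre 102827500) or below, 15, 15 and 12 were listed. The place of this split, 115 kb from the start, was chosen after the values were seen.

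**Figure D5:**
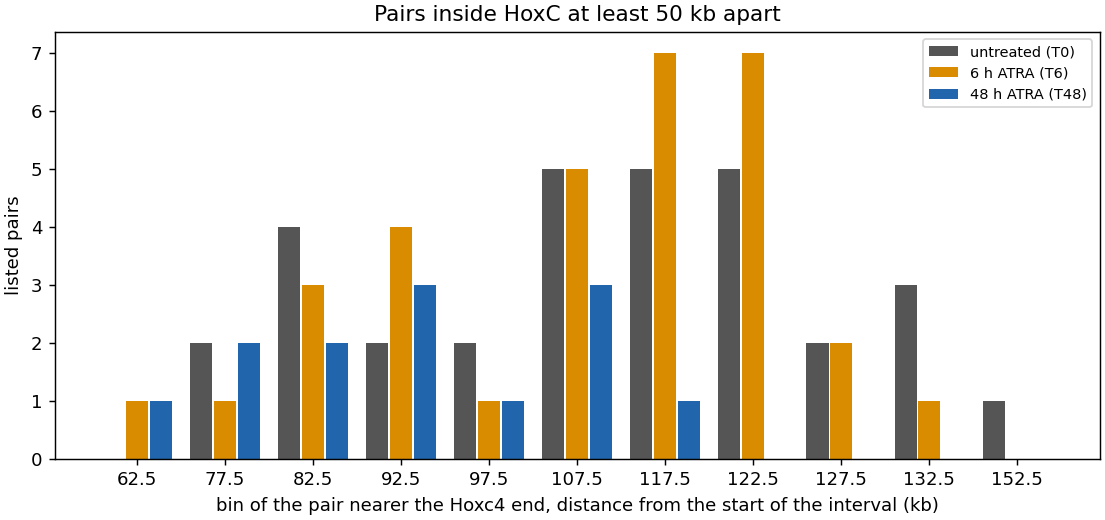
Number of listed contacts inside HoxC between bins at least 50 kb apart, by the bin of the pair nearer the Hoxc4 end (distance of its centre from the start of the interval, kb) and time point. Contacts whose nearer bin lies at 117.5 kb or beyond number 16 at T0, 17 at T6 and 1 at T48.

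These contacts were weak, near the lowest counts the table lists. The contact of 102752500 with 102837500, 85 kb apart, had 17 and 10 counts at T0 and 17 and 12 at T6 and was not listed at T48. The contact of 102767500 with 102837500, 70 kb apart, had 21 and 7 at T0 and 15 and 12 at T6 and was also not listed at T48. The one that stayed, 102787500 with 102837500, 50 kb apart, had 23 and 15 counts in the T0 libraries, 20 and 18 in those of T6 and 12 and 8 in those of T48. At T48 it was thus close to the lowest listed count, with a log2 fold change over T0 of -0.81 (SE 0.327) and an edgeR adjusted p of 0.893. Contacts of at least 50 kb that were listed at T0 and not at T48 had 1.0 to 2.33 times the lowest count listed at their distance. When 1.5 times the lowest count was asked of both libraries, 3, 13 and 1 contacts of at least 50 kb were left in the whole interval, and 2, 5 and 0 of those that crossed 115 kb.

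Of the shorter contacts that crossed the same place, fewer were listed at each later time point, though most still were at T48. Of 13 at 5 to 45 kb, 13 were listed before ATRA, 10 at T6 and 8 at T48. Over the same distances, 73, 61 and 66 of 77 were listed with both bins below that place. With both bins beyond it, 14, 16 and 13 of 20 were listed. When the stricter count of the preceding paragraph was asked of both libraries, 10, 6 and 4 of the crossing contacts were left. Those below then numbered 42, 24 and 34, and those beyond 7, 5 and 5. The 9 common contacts of any distance that crossed this place held 12.0 and 12.3 CPM (of common counts) for T0, 10.5 and 12.3 for T6 and 10.2 and 10.6 for T48, with both T48 libraries below both T0 libraries. The 8 common contacts with both bins beyond it, toward Hoxc4, held 18.2 and 17.1 in the T0 libraries, 19.8 and 20.3 in those of T6 and 22.8 and 21.1 in those of T48, with both T48 libraries above both T0 libraries. The 60 with both bins below it held 93.2 and 94.4, 96.0 and 97.4, and 97.0 and 101. As the place was chosen on these data, no test is given for these sums.

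Single contacts gave no call. In edgeR, 0 of the 264 HoxC contacts that passed the count filter were called in each comparison, as were 0 of 496203 over the genome (0%). At an unadjusted p under 0.05 there were 7 HoxC contacts in T6 over T0, 16 in T48 over T0 and 13 in T48 over T6, which is 2.65%, 6.06% and 4.92% of them, against 3.17%, 5.52% and 5.06% of all contacts. DESeq2 called 1, 71 and 64 contacts over the genome. Its own filtering left an adjusted p for 292, 10 and 6 HoxC contacts, of which it called 0, so it gives no answer for most HoxC contacts in the comparisons with T48. The contacts with the lowest p are given as values. Standard errors of the log2 fold changes of the 264 contacts had a median of 0.29 in T48 over T0 and reached 0.79.

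The lowest p in T6 over T0 came from 1 library. The contact of 102817500, in the middle of the cluster, with 103012500 beyond the Hoxc4 end, 195 kb apart, had 16 and 10 counts in the T0 libraries, 69 and 9 in those of T6 and 10 and 5 in those of T48. Replicate 1 of T6 stood above every other library, whereas replicate 2 of T6 lay within the range of the others. Its log2 fold change was 1.70 (SE 0.550, edgeR adjusted p 1.00) at T6 over T0 and -2.38 (SE 0.621, adjusted p 0.879) at T48 over T6. With replicate 1 of T6 left out, these were 0.15 and -0.83.

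The 2 contacts with the lowest p in T48 over T0 shared 1 bin on the Hoxc13 side, at 47.5 kb (centre 102767500). Its contact with 102597500, 170 kb apart, had 13 and 8 counts in the T0 libraries, 11 and 7 in those of T6 and 31 and 12 in those of T48, a log2 fold change over T0 of 1.13 (SE 0.320, edgeR adjusted p 0.817), which was 0.62 without replicate 1 of T48. Its contact with 102592500, 175 kb apart, had 12 and 10 in the T0 libraries, 13 and 11 in those of T6 and 29 and 14 in those of T48, a log2 fold change of 1.06 (SE 0.321, adjusted p 0.842). Scaled to library depth, the T48 libraries lay above those of T0 in both contacts, more so in replicate 1. Going the other way, the contact of 102742500 with 102582500, 160 kb apart, had 18 and 13 in the T0 libraries, 15 and 5 in those of T6 and 8 and 5 in those of T48, a log2 fold change of -1.13 (SE 0.338, adjusted p 0.845). The first 2 of these contacts share the bin at 102767500, so they are not independent.

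Inside the cluster, the contact of 102817500 with 102837500, 20 kb apart and across the 115 kb mark, had 34 and 21 counts in the T0 libraries, 24 and 18 in those of T6 and 43 and 34 in those of T48. It had more counts at T48 in both libraries, whereas the summed crossing contacts had fewer than at T0, with a log2 fold change of 0.80 (SE 0.220) at T48 over T6 and an edgeR adjusted p of 0.907. Without replicate 1 of T6 that log2 fold change was 0.53. Among the strongest inside contacts of at least 50 kb, 102747500 with 102802500, 55 kb apart, had 33 and 10 counts in the T0 libraries, 18 and 12 in those of T6 and 13 and 20 in those of T48. Its libraries within T0 differed more than its time points did. The contact of 102752500 with 102802500, 50 kb apart, had 15 and 15, 18 and 20, and 16 and 16.

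The longest contacts listed at all 3 time points joined the middle of the cluster to the lower flank over 250 to 270 kb. One of them, 102517500 with 102787500, had 5 and 4 counts in the T0 libraries, 5 and 4 in those of T6 and 8 and 7 in those of T48. Contacts over 400 kb were rare: there were 7, each listed at 1 time point with counts of 3 to 7, up to 3805 kb at T48. Contacts listed at 1 time point alone were ranked by their count relative to the lowest count listed at the same distance, as a mean of both libraries; shorter contacts can have higher counts. First at T0 alone was 102597500 with 102747500, with 17 and 16 counts, or 2.43 and 3.2 times the lowest. First at T6 alone was 102802500 with 103127500, with 5 and 13 counts, or 1.25 and 4.33 times the lowest. First at T48 alone was 102617500 with 102772500, with 16 and 19 counts, or 2.67 and 3.8 times the lowest.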

How the data were processed

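Hi-C ligation products of 6 P19 libraries were counted by the authors between pairs of 5 kb bins. The deposited table holds raw counts per contact and library, with bin centres on mm9, contacts up to 10 Mb and no normalization that the headers or values show. Per the submitters' processing notes CASAVA 1.8.2, Bowtie2 and mm9 were used; the rule by which contacts were listed was not stated there. The 4 mitochondrial contacts were left out.

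The members, lists and tests were chosen with earlier results of these data known. Counts of contacts listed at all 3 time points were tested per contact, per bin and per window of 34 bins (1 window is HoxC) by edgeR 4.0.16 quasi-likelihood F tests (TMM, filterByExpr, 6 libraries in 1 fit, R 4.3.3), adjusted by Benjamini-Hochberg over the whole table with a threshold of 0.05. Inside over outside, with a pseudocount of 0.5 and at least 50 mean counts on each side, was tested on the log2 scale by limma 3.58.1, each library centred on its median; DESeq2 1.42.0 was an alternative. The fits were first tested on simulated data. Alternatives changed the normalization, the count filter, the contacts used, the window, the pseudocount, the centring, a replicate block and each library in turn. Contacts named in the text were the strongest inside ones of at least 50 kb, those with the lowest p, the longest, and, among those listed at 1 time point alone, the highest relative to the lowest count listed at that distance. Named bins were the highest, the lowest and those with the lowest p; named partner bins had the most HoxC bins or the largest gain or loss. Contacts that illustrate the 115 kb split, those of 102752500 and 102767500 with 102837500, were chosen after their values were seen.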

Additional observations from a re-analysis of the deposited data

How the results depend on the processing

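The inside, flank and inside over outside values of HoxC were small, and several changed sign with the processing; with 1 exception, given here with its adjusted p, none of them passed the threshold under the alternatives run. Using all listed contacts, with 0 for unlisted ones, gave log2 values of -0.1105 (T48 over T0) and -0.1669 (T48 over T6) inside, -0.009 (T48 over T0) for the lower flank, -0.0216 (T48 over T0) and -0.2228 (T48 over T6, adjusted p 0.020) for the higher flank, and -0.044 (T6 over T0) and -0.1263 (T48 over T0) for inside over outside. With it, the bin at 102852500 had -0.5346 and the bin at 102887500 had -0.6281 at T48 over T0, both past the threshold, and the latter had 0.3662 at T6 over T0 (adjusted p 0.0315); 3, 5 and 7 of 26 HoxC bins were called in the 3 comparisons, against 30.5%, 36.7% and 40.8% of all bins. Windows of 24 bins gave 0.0341, 0.183 and 0.1489 for the lower flank (T6 over T0, T48 over T0 and T48 over T6, the last 2 with adjusted p 0.569 and 0.724) and -0.0312 and -0.0802 for inside over outside (T6 and T48 over T0). Contacts of at least 15 kb gave 0.0289 for the higher flank (T48 over T6) and -0.0004 and 0.0251 for inside over outside (T6 over T0, T48 over T6). Each class fitted alone gave 0.0046 for the higher flank, and no centring gave 0.0084 for inside over outside, both at T48 over T6. The cause of these differences from the main values was not tested. The first alternative puts in 0s by construction.

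Leaving out 1 library at a time moved T6 over T0, T48 over T0 and T48 over T6 between 0.0257 and 0.0628, 0.0427 and 0.0892, and -0.0017 and 0.0451 inside. For the lower flank the ranges were -0.0987 to 0.0776, -0.0522 to 0.1131 and -0.0467 to 0.1292, and for the higher flank 0.028 to 0.1336, 0.0185 to 0.1233 and -0.0551 to 0.0356. For inside over outside they were -0.0019 to 0.0546, -0.0073 to 0.0492 and -0.0117 to 0.0009. The contacts, bins and window classes called over the genome were 0 without any 1 library.

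Over the genome, in the order T6 over T0, T48 over T0 and T48 over T6, DESeq2 called 1, 71 and 64 contacts, 41, 190 and 149 bins and 5, 108 and 48 window classes. All listed contacts gave 112091, 134992 and 149814 called bins and 4348, 15664 and 15893 called window classes. Replicate numbers are shared by the groups but nothing in the labels pairs them, and the differences between replicates correlated at 0.361 (T0 and T6), 0.303 (T0 and T48) and 0.302 (T6 and T48) over contacts. With the replicate number as a block, 0, 1 and 1 contacts, 34, 154 and 133 bins and 0, 381 and 199 window classes were called, none of them of HoxC. Asking for 1.5 times the lowest listed count left 226, 188 and 210 HoxC contacts at T0, T6 and T48, of which 3, 13 and 1 were inside contacts of at least 50 kb and 12, 11 and 4 crossed 115 kb; the inside split was added after the data were seen. At this depth a listing is decided by few counts, and 2 libraries per group limit each test.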
